A study of Felis catus with 2 samples.

Results

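Cytokines and chemokines are small secreted proteins that carry signals between cells, and each acts through receptor chains on the surface of the responding cell. Chemokines direct the movement of leukocytes and bind G protein-coupled receptors, named CXCR and CCR after the ligand families they recognize. Interleukins bind receptors built of 2 or more chains, several of which are shared between ligands, and signal mainly through JAK kinases and STAT factors or, in the interleukin 1 family, through MYD88 and NF-kB. In the anterior eye such factors are known from the aqueous humor and from the cells of the trabecular meshwork, ciliary body and ocular surface.

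The genes were chosen by name from the deposited table. Names beginning with CXCL, CCL, CX3CL, CXCR or CCR and a digit, or with IL and a digit, were taken, which gave 105 of 19181 genes that stand alone on a row. They comprised 22 chemokine ligands, 15 chemokine receptors, 33 interleukin ligands, 34 interleukin receptor chains and IL4I1, an amino acid oxidase that shares only the name. IL8, counted here with the interleukins, is a chemokine that RefSeq now calls CXCL8. In the RefSeq annotation of a later cat assembly, 99 of the names were found as symbols and 1 as an older symbol. CX3CR1, the receptor of CX3CL1, and the atypical receptors named ACKR are outside the name rule.

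The normal library came from 1 healthy cat and the affected library from 1 unrelated cat with primary congenital glaucoma, both 2 months old. The affected cat belonged to a colony, founded by Siamese cats, in which the disease is recessive and segregates with a frameshift insertion in LTBP2, and the normal cat served as the age-matched control. The tissue held the ciliary body, the iridocorneal angle, trabecular meshwork and neighboring sclera. Of 6 trabecular meshwork markers, 5 reached 1 FPKM in the normal library and 6 in the affected one, and MYOC had 149.7 and 301.5 FPKM. By 2-fold or more 4 of the markers were higher in the affected cat, MYOC, ANGPTL7, RASD1 and CHI3L1 (0.854 and 32.0 FPKM), and MGP was lower, with 454.9 and 52.9 FPKM. MYOC lay at the threshold, with a log2 ratio of 1.01, and was within 2-fold (0.96) with both libraries rescaled to the same sum. Since each condition is 1 cat, disease, individual and dissection cannot be told apart, and no difference given here was tested. In whole tissue, fewer cells of a type and less RNA per cell cannot be told apart either.

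FPKM is the number of sequenced fragments scaled by transcript length and by library size, so it can be compared between genes. On 1 kilobase of effective transcript length, 1 fragment was worth 0.0141 FPKM in the normal cat and 0.0149 FPKM in the affected cat. Of the 19181 genes 3246 are listed at exactly 0 in both libraries, among them LYZ and ISG15, so a 0 is not read as absence. Ratios are on the scale of log2(FPKM + 1), with positive values where the affected library was higher.

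Of the 105 genes, 43 (41.0%) reached 1 FPKM in at least 1 library, against 66.3% of all single-name genes. Of the 43, 30 reached it in both libraries, 6 in the normal library only and 7 in the affected library only, so 13 genes, not the same set as the 13 past 2-fold below, entered through 1 library alone. Detection differed between roles. Of the chemokine ligands 14 of 22 reached 1 FPKM, of the interleukin receptor chains 16 of 34, of the interleukin ligands 9 of 33 and of the chemokine receptors 4 of 15. The other 62 genes, IL4I1 included, lay at or below 0.977 FPKM in both libraries, and 10 of them were listed at 0 in both. Those 10 were CCL1, CCL16, IL2, IL4, IL9, IL17A, IL20, IL21, IL22 and IL24. Together the 105 genes summed to 530.0 FPKM in the normal cat and 427.4 FPKM in the affected cat.

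Among the 43 genes, 8 were higher by 2-fold or more in the affected cat (18.6%), against 6.63% of all genes that reached 1 FPKM. A further 5 were at least 2-fold lower (11.6%), against 8.46% of all genes. Of these 13 genes 6 passed the minimum through 1 library alone, CCL20, CCL5, CXCL17 and IL12RB2 through the affected and CCL21 and CCL8 through the normal library, so nothing is read from these shares. With both libraries rescaled to the same larger sum, which shifts each FPKM ratio by −0.05 on the log2 scale and makes the added 1 FPKM weigh less, 52 genes passed the minimum, the higher count stayed at 8 and the lower count was 8. The added lower genes, IL12B, IL13RA2 and IL18, were already among the 43, and the split was 50.0% higher in place of 61.5%. The median log2 ratio of the 43 genes was 0.02, beside −0.02 for all genes, with values from −3.72 (CCL14) to 2.46 (IL12RB2). Its sign was not stable, since it was −0.03 after that rescaling and −0.44 over the genes that averaged 5 FPKM or more. The median size of the log2 ratio without its sign was 0.73, and over all genes 0.38. The 43 genes stood lower, with a median of 2.49 FPKM in the normal library against 10.4 FPKM over all genes. A larger share of them, 13 of 43, entered through 1 library alone, against 751 (normal) and 410 (affected) of 12724 genes. Nothing is read from this contrast either. By role, the genes past 2-fold were 8 of 14 chemokine ligands, 4 of 16 interleukin receptor chains, 1 of 4 chemokine receptors and 0 of 9 interleukin ligands. Over all genes that reached 1 FPKM, 15.1% were past 2-fold in either direction. Among the ligands counted, CCL20, CCL5, CXCL17, CCL21 and CCL8 entered through 1 library alone. The counts by role are therefore not read as a difference between roles.

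**Figure D1:**
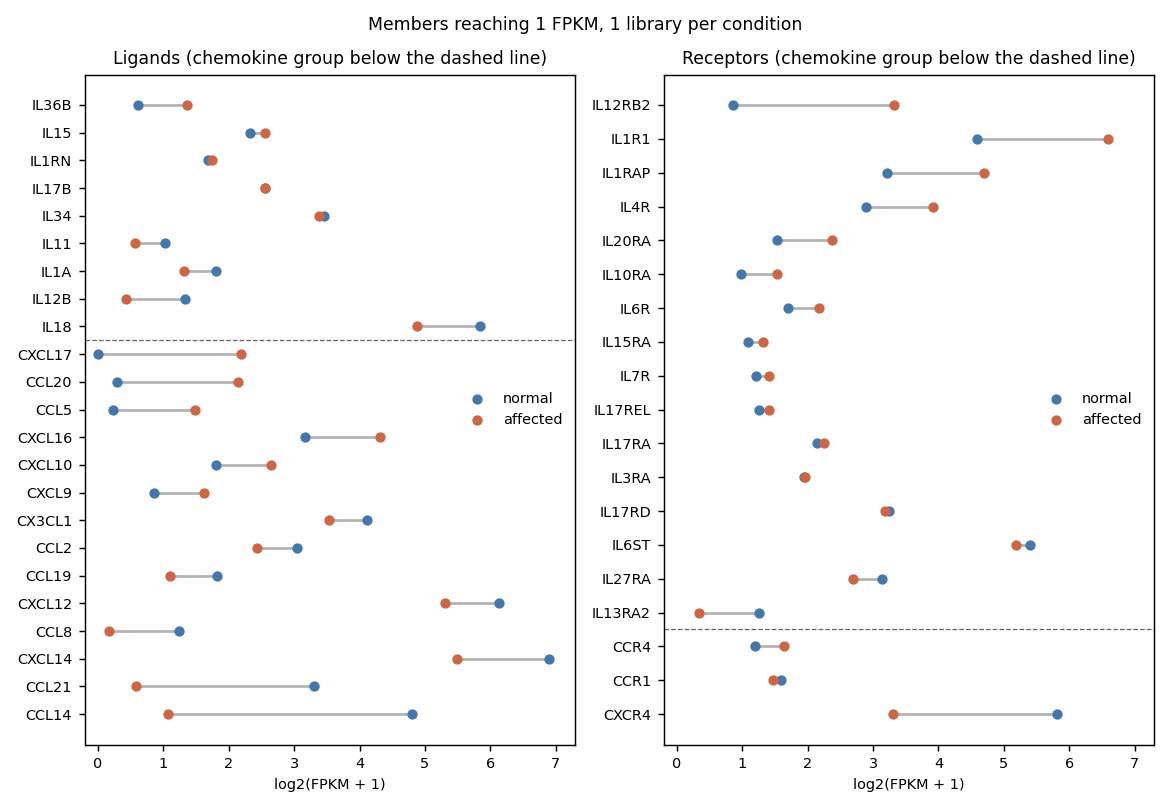
Level of 42 of the 43 genes that reached 1 FPKM, as log2(FPKM + 1) in the normal (blue) and affected (orange) library, with 1 library per condition and no error bars. Lines join the 2 values of a gene, and within each role genes are ordered by log2 ratio. CCL14 and CCL21 show the widest gaps with the normal library higher, IL12RB2 and CXCL17 with the affected library higher.

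**Figure D2:**
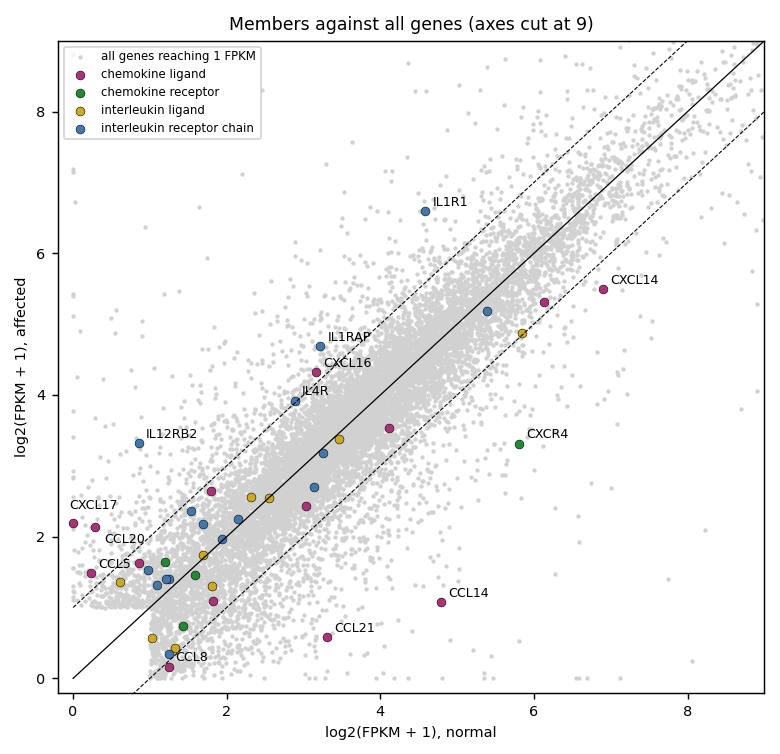
Affected against normal library on log2(FPKM + 1) axes for the 12724 genes that reached 1 FPKM (grey, axes cut at 9, so the most abundant are not shown) and the 43 cytokine, chemokine and receptor genes (colored by role). The solid line marks equal values and the dashed lines 2-fold differences, and the 13 named genes lie on or beyond the dashed lines.

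The chemokine ligands were the class with the highest sum in the normal library, 262.6 FPKM, against 137.3 FPKM in the affected cat. CXCL14, a chemokine made constitutively by epithelia, was the most abundant of all 105 genes in the normal library with 118.1 FPKM. It had 44.1 FPKM in the affected cat, a log2 ratio of −1.40. CXCL14 alone made up 44.97% of the ligand sum in the normal cat and 32.2% in the affected cat. CXCL12, which guides and retains cells that carry CXCR4, was second with 69.0 FPKM in the normal cat and 38.7 FPKM in the affected cat. Its log2 ratio of −0.82 did not reach 2-fold.

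CCL14, a constitutive chemokine of plasma and a ligand of CCR1, had the lowest log2 ratio of the 43 genes. It had 26.8 FPKM in the normal cat and 1.10 FPKM in the affected cat, 24.3 times lower, and only 0.251% of all genes had a lower log2 ratio (−3.72). Among the genes that reached 1 FPKM it ranked above 77.9% in the normal library and above 7.16% in the affected library. CCL21, which draws CCR7-carrying dendritic and T cells toward lymphatic vessels, had 8.86 FPKM in the normal cat and 0.493 FPKM in the affected cat, a log2 ratio of −2.72. CCL21 stands on 2 rows, and the other row had nearly equal values of 0.296 and 0.294 FPKM. CCL19, the second ligand of CCR7, had 2.54 and 1.14 FPKM in the normal and affected library, and its log2 ratio of −0.73 lay within 2-fold.

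The monocyte attractants differed in level. CCL2 had 7.20 FPKM in the normal cat and 4.42 FPKM in the affected cat (log2 ratio −0.60). CCL8 had 1.37 FPKM in the normal cat and 0.120 FPKM in the affected cat (−1.08), and is the lower gene closest to the 2-fold threshold. CCL7 stayed at or below 0.312 FPKM in both libraries. CX3CL1, a membrane-bound chemokine, had 16.3 FPKM in the normal cat and 10.5 FPKM in the affected cat (−0.58).

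Chemokine ligands past 2-fold in the other direction numbered 4. CXCL16, a membrane-bound chemokine that also takes up oxidized lipoprotein, had 7.94 FPKM in the normal cat and 19.0 FPKM in the affected cat, a log2 ratio of 1.16. CCL20, the ligand of CCR6, had 0.220 FPKM in the normal cat and 3.40 FPKM in the affected cat (log2 ratio 1.85). CCL5, an attractant of T cells and monocytes, had 0.173 FPKM in the normal cat and 1.80 FPKM in the affected cat (1.26). CXCL17, a chemokine of mucosal surfaces, was listed at 0 in the normal library and had 3.55 FPKM in the affected cat, so no fold is given. Without genes at 0 in exactly 1 library, 7 genes in place of 8 were at least 2-fold higher.

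CXCL9 and CXCL10, which interferon gamma induces and which act on CXCR3, were both higher in the affected library without reaching 2-fold on this scale. CXCL10 had 2.48 FPKM in the normal cat and 5.24 FPKM in the affected cat (log2 ratio 0.84), and CXCL9 had 0.816 and 2.09 FPKM (0.77). The third ligand of this receptor, CXCL11, stayed below 1 FPKM, with 0.0721 FPKM in the normal cat and 0.450 FPKM in the affected cat. IL8, the classical attractant of neutrophils, had 0.680 and 0.593 FPKM in the normal and affected library.

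Among the chemokine receptors, CXCR4 held most of the signal. It had 55.0 FPKM in the normal cat and 8.91 FPKM in the affected cat, 6.18 times lower, with a log2 ratio of −2.50. The sum over all 15 chemokine receptors was 61.9 FPKM in the normal cat and 14.3 FPKM in the affected cat, of which CXCR4 made up 88.9% and 62.3%. Without CXCR4 the sums were 6.87 and 5.39 FPKM. Most of the difference between the class sums thus lay in CXCR4.

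CCR1 and CCR4, both carried by leukocytes, also reached 1 FPKM, far below the level of CXCR4 in the normal cat. CCR1 had 2.02 FPKM in the normal cat and 1.76 FPKM in the affected cat (log2 ratio −0.13). CCR4 had 1.30 FPKM in the normal cat and 2.11 FPKM in the affected cat (0.43). CCR2, the receptor of CCL2 on monocytes, had 0.512 FPKM in the normal cat and 0.0904 FPKM in the affected cat. The receptors CCR3, CCR6 to CCR10, CXCR2, CXCR3, CXCR5 and CXCR6 lay at or below 0.4001 FPKM in both libraries.

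No interleukin ligand that reached 1 FPKM was past 2-fold on the scale with 1 FPKM added. With 0.1 FPKM added IL36B was past it as higher and IL12B as lower, and with rescaling IL12B and IL18 as lower. IL18, an interleukin 1 family cytokine released after cleavage by caspase 1, was by far the most abundant, with 56.2 FPKM in the normal cat and 28.5 FPKM in the affected cat. Its log2 ratio of −0.96 was the closest to the threshold among the genes that missed it, and IL18 made up 64.1% and 49.8% of the interleukin ligand sum. IL34, a ligand of CSF1R that maintains tissue macrophages, had 10.02 FPKM in the normal cat and 9.44 FPKM in the affected cat. IL17B had 4.86 and 4.85 FPKM, and IL15, which sustains natural killer and memory T cells, 3.995 and 4.89 FPKM. IL34, IL17B and IL15 thus stood at nearly the same level in both libraries.

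The interleukin 1 family ligands other than IL18 were low. IL1A, an alarm signal of injured cells, had 2.49 FPKM in the normal cat and 1.48 FPKM in the affected cat. Its antagonist IL1RN had 2.22 and 2.36 FPKM. IL1B, the form secreted by activated macrophages, had 0.572 FPKM in the normal cat and 0.0369 FPKM in the affected cat, and IL33 had 0.779 and 0.103 FPKM, both under 1 FPKM in each library. IL36B had 0.532 FPKM in the normal cat and 1.56 FPKM in the affected cat (log2 ratio 0.74). Reaching 1 FPKM in the normal library only were IL12B, the subunit shared by interleukin 12 and interleukin 23, with 1.52 and 0.341 FPKM in the normal and affected library, and IL11 with 1.04 and 0.486 FPKM. IL6 had 0.111 and 0.0889 FPKM, and the T helper cytokines IL4, IL5, IL13 and IL17A were at or below 0.171 FPKM.

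The interleukin receptor chains were the class that was higher in sum in the affected cat, with 117.3 FPKM in the normal cat and 217.9 FPKM in the affected cat. Without IL1R1 the sums were 94.3 and 122.5 FPKM. IL1R1, the signaling receptor of IL1A and IL1B, had 23.0 FPKM in the normal cat and 95.4 FPKM in the affected cat. It was 4.14 times higher, its log2 ratio of 2.003 exceeded that of 98.5% of all genes, and it was the most abundant of the 105 genes in the affected library and the seventh in the normal one. IL1RAP, the chain that IL1R1 needs to signal, had 8.32 FPKM in the normal cat and 24.9 FPKM in the affected cat, 2.99 times higher (log2 ratio 1.47). The decoy receptor IL1R2, which binds interleukin 1 without signaling, had 0.166 and 0.593 FPKM.

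IL12RB2, the chain of the interleukin 12 receptor that activates STAT4, had the highest log2 ratio of the 43 genes. It had 0.809 FPKM in the normal cat and 8.97 FPKM in the affected cat, 11.1 times higher (log2 ratio 2.46). Its partner chain IL12RB1 had 0.238 and 0.295 FPKM, and STAT4 had 1.14 FPKM in the normal cat and 0.193 FPKM in the affected cat. IL4R, the receptor chain for IL4 and IL13, had 6.38 FPKM in the normal cat and 14.1 FPKM in the affected cat. Its log2 ratio of 1.03 lay just past the threshold. IL13RA2, a decoy for IL13, had 1.38 and 0.266 FPKM in the normal and affected library (−0.91).

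The most abundant receptor chain in the normal library, IL6ST, signals for IL6, IL11 and related cytokines and had 41.0 FPKM in the normal cat and 35.3 FPKM in the affected cat (−0.21). The binding chain IL6R had 2.24 and 3.53 FPKM (0.49). IL20RA had 1.90 FPKM in the normal cat and 4.15 FPKM in the affected cat (0.83), whereas IL20RB, its partner, had 0.840 and 0.105 FPKM. IL17RD, which restrains fibroblast growth factor signaling, had 8.50 and 8.11 FPKM, and IL27RA had 7.78 and 5.49 FPKM. IL17RA, IL3RA, IL7R, IL15RA, IL10RA and IL17REL lay between 0.974 and 3.77 FPKM, with log2 ratios from 0.02 (IL3RA) to 0.55 (IL10RA). IL2RG, the chain shared by the receptors of IL2, IL4, IL7, IL15 and IL21, had 0.345 FPKM in the normal cat and 0.354 FPKM in the affected cat.

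Ligands and receptors known to bind each other were then set side by side. Of 45 such pairs, 23 had a ligand at 1 FPKM or more in a library, and in 13 of those 23 the receptor was below 1 FPKM in both. Of all 49 receptor genes 29 were below it in both as well, so this share is near that of the receptors in general. CXCL16 met CXCR6 at 0 FPKM in the normal cat and 0.155 FPKM in the affected cat, and IL18 met IL18R1 at 0.464 and 0.0709 FPKM. CCL20 met CCR6 at 0.161 and 0.0658 FPKM, and CCL21 and CCL19 met CCR7 at 0.124 and 0.0176 FPKM. Both partners reached 1 FPKM in 8 pairs in the normal cat and 7 in the affected cat, 6 of them in both.

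These 6 pairs were CXCL12 with CXCR4, CXCL12 with its scavenging receptor ACKR3, CCL14 with CCR1, IL1A with IL1R1, IL15 with IL15RA and IL34 with CSF1R. In the CXCL12 and CXCR4 pair both genes were lower in the affected library, the ligand within 2-fold (log2 ratio −0.82) and the receptor past it. In the IL1A and IL1R1 pair the receptor was higher past 2-fold, and the ligand was low and lower within 2-fold (−0.49). CSF1R had 12.9 FPKM in the normal cat and 11.7 FPKM in the affected cat, so that ligand and receptor of the IL34 pair were both nearly equal in the libraries. CX3CL1 and CX3CR1 reached 1 FPKM together only in the normal library, where CX3CR1 had 1.49 FPKM, against 0.354 FPKM in the affected cat.

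**Figure D3:**
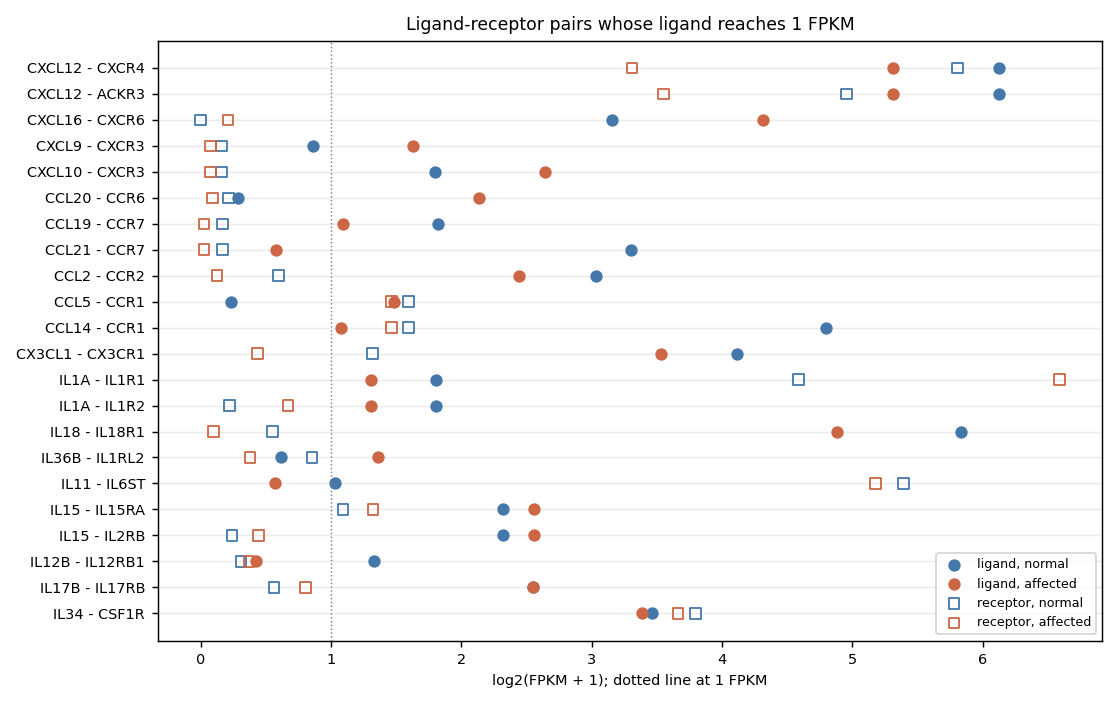
Levels, as log2(FPKM + 1), of ligand (filled circles) and receptor (open squares) in the normal (blue) and affected (orange) library for 22 of the 23 pairs whose ligand reached 1 FPKM in a library. The dotted line stands at 1 FPKM, and in 13 pairs both squares lie left of it.

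Genes of these families stand in groups along the chromosomes. Members no more than 500 kilobases apart formed 20 groups with 59 of the 105 genes. A group of 5 interleukin 1 family receptor genes lies at chrA3:60200810-60634951 in felCat5, apart from IL1RAP and IL1RAPL1, which lie on other chromosomes. IL1R1 was the 1 of these 5 genes that reached 1 FPKM, while its neighbors IL18R1, IL1RL1, IL1RL2 and IL1R2 stayed at or below 0.977 FPKM. The ligands of the family at chrA3:104473559-104755315 were all low, with 3 of 5 reaching 1 FPKM.

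On chromosome E1, CCL5 and CCL14 lie in 1 group at chrE1:22708390-22755524, and CCL5 was higher and CCL14 lower in the affected library. CCL16, between them, was listed at 0 in both. In the group at chrE1:21523171-21590603, CCL2 and CCL8 reached 1 FPKM, and CCL1, CCL7 and CCL13 did not. The 3 ligands of CXCR3 at chrB1:143901693-144059974 each had a higher value in the affected library. CXCL10 and CXCL11 are listed with the same span, as are IL1A, IL1B and IL36G, so the order within a shared span is not given by the table.

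**Figure D4:**
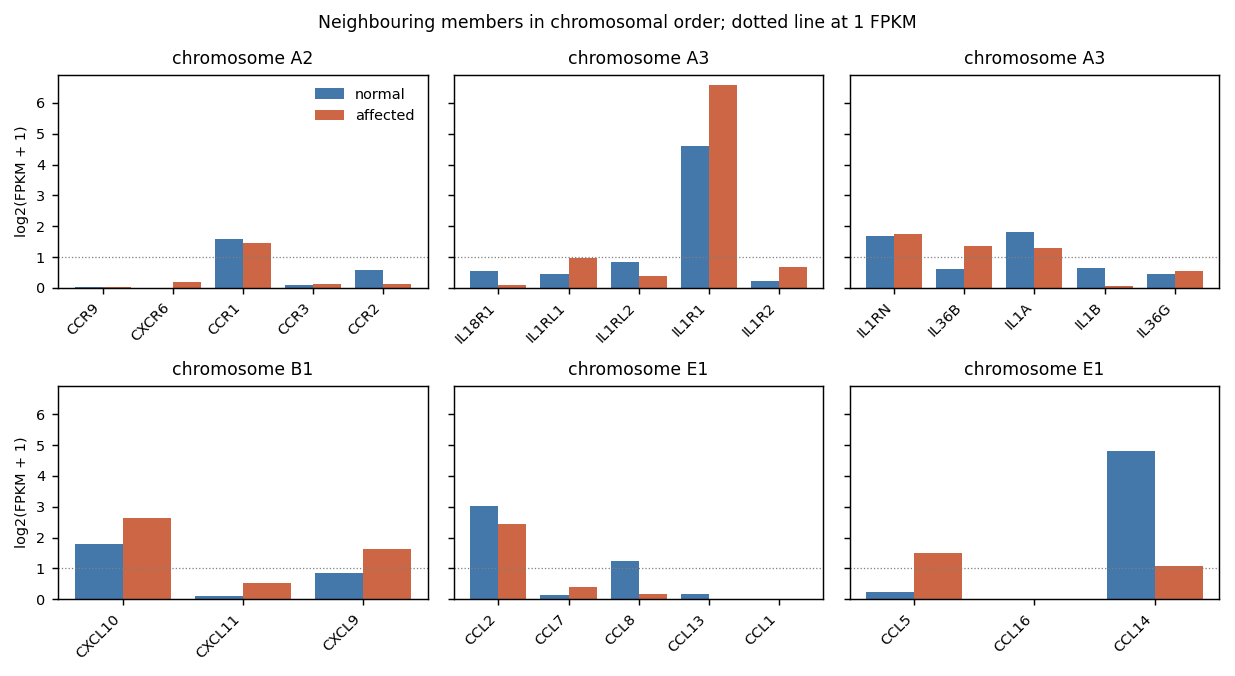
Levels, as log2(FPKM + 1), in the normal (blue) and affected (orange) library for genes of 6 neighboring groups, ordered by the start of the locus (alphabetically where loci share a span). The dotted line stands at 1 FPKM. IL1R1 stands above its neighbors on chromosome A3, and CCL5 and CCL14 on chromosome E1 differ between the libraries in opposite directions.

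Among signaling genes downstream of these receptors, the genes at least 2-fold higher were CISH, NFKBIA and NFKB2. Of 23 genes for JAK kinases, STAT factors and their inhibitors, 21 were found by name and all 21 reached 1 FPKM. CISH, a feedback inhibitor induced by STAT5, was the 1 gene past 2-fold, with 3.19 FPKM in the normal cat and 10.3 FPKM in the affected cat (log2 ratio 1.43), which is 4.76% higher against 6.63% of all genes, and 0 were lower, against 8.46%. The median of this list was 0.23. SOCS3, an inhibitor induced by IL6-type cytokines, had 4.32 and 3.47 FPKM. Of 30 genes of the MYD88 and NF-kB pathway, 29 were found and 27 reached 1 FPKM, with a median of 0.08. NFKBIA, the NF-kB inhibitor that NF-kB itself induces, had 22.5 FPKM in the normal cat and 64.4 FPKM in the affected cat (1.48). NFKB2, a subunit of the factor, had 9.30 and 20.8 FPKM (1.08). These 2 genes are 7.41% of the 27 that reached 1 FPKM, against the same 6.63%, and 0 genes were 2-fold lower.

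Markers of cells that carry or make these factors were listed beside them. Over all genes that reached 1 FPKM, 6.63% were 2-fold higher and 8.46% 2-fold lower. These shares stand beside the counts of the trabecular meshwork markers above and of all marker and response lists that follow. Of 18 macrophage and leukocyte markers, 15 were found, 14 reached 1 FPKM and 4 were 2-fold higher in the affected cat, with a summed level of 199.7 FPKM in the normal cat and 440.1 FPKM in the affected cat. The 4 were CD163 and the complement genes C1QA, C1QB and C1QC, without which last 3 the sums were 109.5 and 115.6 FPKM. Of the 14 markers 8 had lower values in the affected cat, among them CSF1R, P2RY12, ITGAM, CYBB and PTPRC, the pan-leukocyte marker, with 2.13 and 1.23 FPKM, and the median log2 ratio was −0.23. LYZ was at 0 in both. Of 13 T and natural killer cell markers 3 reached 1 FPKM, with sums of 29.5 and 115.1 FPKM, or 4.89 and 7.36 FPKM without CD247, which had 24.7 and 107.7 FPKM. The other markers that reached 1 FPKM were CD3E, with 1.28 and 3.26 FPKM (log2 ratio 0.90), and ZAP70, with 1.04 and 1.10 FPKM, and CD3D, CD3G, CD4 and CD8A were at or below 0.399 FPKM in both libraries. Of 7 B cell markers 2 reached 1 FPKM, with sums of 6.04 FPKM in the normal cat and 6.53 FPKM in the affected cat, and 0 were past 2-fold.

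Of 10 mast cell and neutrophil markers, 9 were found and 7 reached 1 FPKM, with sums of 27.7 and 56.5 FPKM. S100A8 (9.62 and 27.0 FPKM), S100A9 (2.44 and 19.5 FPKM) and S100A12 were 2-fold higher and the mast cell genes CPA3, MS4A2 and KIT 2-fold lower in the affected library. CPA3 had 7.88 FPKM in the normal cat and was listed at 0 in the affected cat. The neutrophil markers CSF3R (0.538 and 0.480 FPKM) and MPO (0.112 and 0.0742 FPKM) stayed under 1 FPKM, with lower values in the affected cat. The marker lists thus moved in several directions, and their part in the values above was not tested.

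Markers of other tissues also differed between the libraries. Of 11 vascular endothelium markers, 9 were found, all 9 reached 1 FPKM and 6 were 2-fold lower, with a summed level of 175.1 FPKM in the normal cat and 54.6 FPKM in the affected cat. ERG, EMCN, CLDN5 and ESAM were the 4 farthest apart, CLDN5 with 32.9 and 7.35 FPKM. Of 11 surface epithelium markers, 8 were found and all 8 were 2-fold lower, with sums of 507.1 and 16.2 FPKM. KRT12, a keratin of the corneal epithelium, had 299.1 and 3.27 FPKM, and KRT3, KRT5 and CDH1 were lower as well. Both lists stood lower, and none of their found members was at 0 in both libraries. Of 15 interferon response genes, 11 were found, 9 reached 1 FPKM and 3 were 2-fold higher, with sums of 129.5 and 585.6 FPKM, and ISG15 was at 0 in both. IFI6 alone had 19.5 and 410.3 FPKM, and without it the sums were 110.0 and 175.3 FPKM. All 9 had higher values in the affected cat.

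Of 13 immediate early genes, 12 were found, all 12 reached 1 FPKM and 9 were 2-fold higher, with sums of 109.3 and 777.4 FPKM. EGR1 had 11.4 and 189.4 FPKM, JUNB, NR4A1 and DUSP1 were also among the 9, and KLF4 had a lower value in the affected cat (10.5 and 5.35 FPKM). Of 8 ciliary epithelium markers 7 were found and 4 were 2-fold higher (2665 and 5560 FPKM in sum), among them COL9A1, COL9A2 and OPTC. In the other direction CA2 was 2-fold lower, with 370.2 and 111.9 FPKM, and TYRP1 had 969.4 and 539.9 FPKM. Of the 8 photoreceptor markers found 7 were 2-fold higher (409.0 and 1661 FPKM in sum), with PDE6A, CNGA1, SAG and PRPH2 farthest apart and SAG at 48.2 and 426.8 FPKM. Of 6 red cell markers 3 were found and 1 reached 1 FPKM, with sums of 3.63 and 0.748 FPKM. The part of these lists in the cytokine, chemokine and receptor values was not tested.

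**Figure D5:**
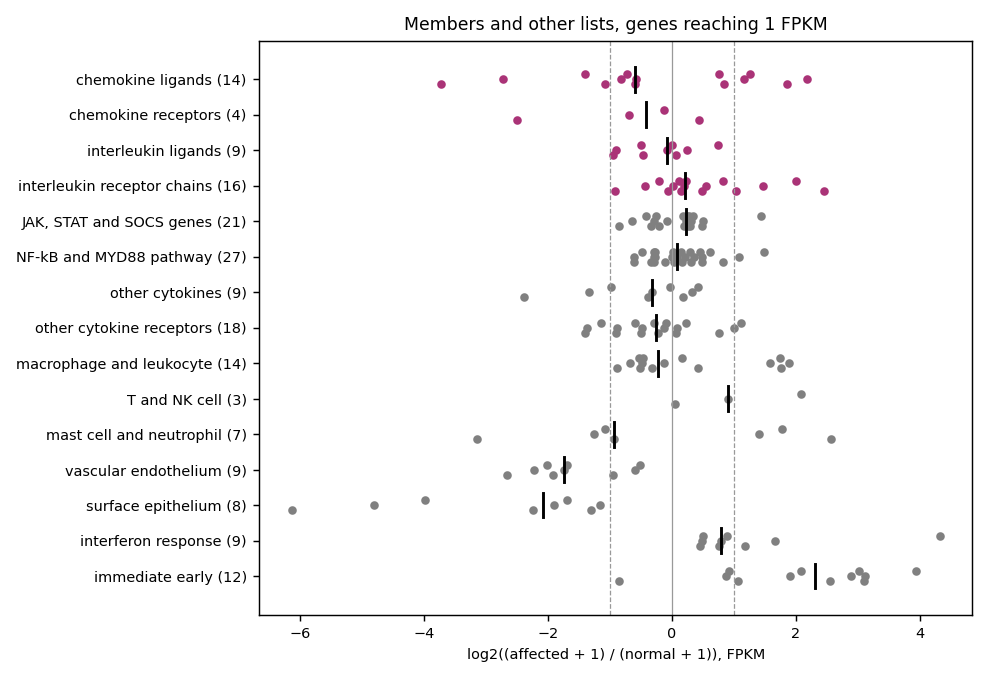
Log2 ratio, affected over normal with 1 FPKM added, of single genes (points) in the 4 roles (purple) and in lists of signaling, marker and response genes (grey), with the number of genes in brackets. Black bars are medians and dashed lines 2-fold differences. Chemokine ligands spread from −3.72 to 2.19, the signaling lists lie mostly within 2-fold, and all surface epithelium points lie left of −1.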

How the data were processed

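Polyadenylated RNA from 2 libraries, 1 for each condition, was analysed. The authors aligned reads to the felCat5 cat genome with TopHat2 2.0.9, and the deposited values are FPKM that they calculated per locus with Cufflinks 2.1.1, versions as in the submitters' processing notes. Neither a filter on loci nor a scaling across libraries is given in the sources used here.

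Genes were rows with a single name, and a repeated name was represented by its row with the highest mean. Roles were set from names alone. Log2 ratios were log2 of (affected + 1) over (normal + 1), without rescaling, for genes with at least 1 FPKM in a library, and understate differences of low genes. FPKM are not counts, so count models do not apply, and since each condition is 1 library there are no p-values. Called means past 2-fold. The members, gene lists and rules were chosen with earlier results of these data known. All members past 2-fold or at 10 FPKM or more in a library are named with their values. Of the other genes, those past 2-fold with 10 FPKM in a library are named, at most 4 per list, with a few fixed ones. Further genes were named after their values were seen.

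The FPKM of 1 fragment was derived from the spacing of low values at loci without a name, taking the locus as the transcript. At 96.9% of 1482 values in the normal and 96.6% of 1246 in the affected library, the result lay within 0.03 of a whole fragment, against 6% for evenly spread values. Since the table gives no transcript lengths, and fragments recovered at short loci of the members were not whole, the planned counting intervals are not given. Calculations were tested on simulated data and used Python 3.11.15, numpy 2.4.6, pandas 2.3.3, scipy 1.17.1 and matplotlib 3.10.9. Alternatives were another pseudocount, 2 rescalings, other minimums, a 4-fold threshold, summed rows, the mean, joined rows, no genes at 0 in exactly 1 library, and a background without Ensembl identifiers. The last 2 were chosen after the data were examined. No protein, promoter or genome sequence was used here. The values of 2 genes are not reported here by name, though counts and sums include them.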

Additional observations from a re-analysis of the deposited data

How the results depend on the processing

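The 8 higher and 5 lower genes stayed past 2-fold in the same direction with a pseudocount of 0.1, with either rescaling, with summed rows and with no minimum. A pseudocount of 0.1 added 4 higher and 4 lower genes, which gave 12 and 9, and rescaling to a common sum gave 8 and 8, with IL12B, IL13RA2 and IL18 added to the lower ones. A mean of at least 5 FPKM left 4 and 3, since 15 genes passed it, and a 4-fold threshold left 3 higher (CXCL17, IL12RB2, IL1R1) and 3 lower (CCL14, CCL21, CXCR4). The median log2 ratio of 0.02 turned to −0.035 with that rescaling, to −0.44 over genes averaging 5 FPKM or more and to −0.0096 for the mean in place of the median, and the cause was not tested. With a minimum of 5 FPKM, 18 of the 105 genes were detected, against 50.6% of all genes. With rows that join a cytokine name to other names counted, 49 of 111 names reached 1 FPKM. Against single names other than Ensembl identifiers, the background of detection was 79.1% in place of 66.3%. Of 129 log2 ratios recomputed for the 43 genes, 37 moved by at least 0.1 and no gene past 2-fold changed sign. Each value rests on 1 library, so no replicate could be left out. No paired analysis was possible because the design holds 1 library a condition.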

Other observations

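Cytokines and receptors outside the name rule were also listed. Of 20 further ligands, 16 were found by name and 9 reached 1 FPKM, with 0 at least 2-fold higher and 2 at least 2-fold lower in the affected library. The 2 lower ligands are 22.2% of the 9, against 8.46% of all genes that reached 1 FPKM, and 6.63% of all genes were higher. SPP1, which encodes osteopontin, had 48.6 FPKM in the normal cat and 18.6 FPKM in the affected cat. LIF had 1.43 and 0.222 FPKM, CSF1, the second ligand of CSF1R, 5.91 and 8.25 FPKM, and TNF 0.279 FPKM in the normal library and 0 in the affected one.

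Of 28 further receptors, 22 were found by name and 18 reached 1 FPKM. Of the 18, 11.1% were 2-fold higher and 16.7% 2-fold lower, against 6.63% and 8.46% of all genes. The atypical chemokine receptors, which bind chemokines without classical signaling, included all 3 that were 2-fold lower. No separate list of atypical receptors was set beforehand, so nothing is read from this grouping. ACKR3 had 30.1 FPKM in the normal cat and 10.7 FPKM in the affected cat (log2 ratio −1.41), ACKR4, which takes up CCL19 and CCL21, 3.42 and 0.710 FPKM (−1.37), and ACKR2 4.68 and 1.57 FPKM (−1.14), the last 2 named after their values were seen. DARC, a further one, had 4.002 and 4.28 FPKM. OSMR, which pairs with IL6ST to bind oncostatin M, had 10.9 and 24.7 FPKM (1.11) and was one of 2 receptors that were 2-fold higher, the other being EPOR with 1.71 and 4.46 FPKM, named after its values were seen.

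Some interleukin names stand on rows shared with other genes. A row with IL13RA1 and an Ensembl identifier had 47.4 FPKM in the normal cat and 31.6 FPKM in the affected cat, and a row with CRELD1, IL17RC and IL17RE had 21.7 and 27.2 FPKM. A row with IL16 and an Ensembl identifier had 2.91 and 3.69 FPKM. A row with IL1F10 and IL36RN had 1.93 and 0.607 FPKM. The share of each gene in these values was not analysed here.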
